A study of Homo sapiens with 4 samples.

Results

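The immediate early transcription factor genes and genes induced with them were examined in ovarian cancer cells with and without ectopic TET1, the methylcytosine dioxygenase of active DNA demethylation. The members were taken by symbol: FOS, FOSB, FOSL1, JUN, JUNB, EGR1, IER2, IER3, DUSP1 and DUSP6. All 10 were found among the 26506 gene symbols of the series. IER3, DUSP1 and DUSP6 do not encode transcription factors, so the name holds for at most 7 of the 10, with IER2 counted.
The cell lines were HeyC2 and SKOV3, both derived from ovarian cancer. Each line was transfected with 3 μg of pCMV6/TET1 (TET1-reprogrammed) or of empty plasmid (control, genotype labelled wild-type) and was kept in 400 μg/ml Geneticin, so controls carried the same selection. The plasmid drives TET1 from a CMV promoter. Whether the selected cells were a pool or a single clone is not given in the labels. Sequencing covered 1 library per condition, 4 in all, so no difference below has a replicate check.

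Immediate early genes are transcribed within minutes of a growth factor or stress signal, without new protein synthesis. ERK, JNK and p38 kinases act on factors already bound at their promoters, such as SRF with its ELK partners at CArG boxes and CREB at cAMP response elements (CRE). FOS and JUN proteins then pair through leucine zippers to form AP-1, EGR1 binds GC-rich DNA through zinc fingers, and the phosphatases DUSP1 and DUSP6 remove the phosphates from the kinases and close the loop.

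The promoters were searched for sequences that such factors read. Of the 10 genes, 8 have a promoter in the RefSeq table (build GRCh38.p14), and the 250 bases before the transcription start were searched on both strands. The motifs were the CArG box, the AP-1 site (TGACTCA or TGAGTCA), the full CRE (TGACGTCA), its core (TGACG, also inside the full CRE), the EGR site (GCGTGGGCG or GCGGGGGCG) and the TATA box (TATAAA). The CRE core was found in 7 of the 8 promoters, and 21.2% of all 35116 promoters in the table hold it. The TATA box was found in 4 of 8 (10.7% of all promoters), the full CRE in 1 of 8 (1.65%) and the CArG box in 1 of 8 (1.16%). No AP-1 site (4.2% of all promoters) and no EGR site (5.37%) lay in these windows. Only exact matches within 250 bases were counted, so variant or more distant sites would be missed. The sequences below belong to the genes with the largest changes in HeyC2 and to DUSP6, whose window held none of these motifs. They are written 5′ to 3′ along the gene, end at the base before the start, and carry the motif matches in capitals.
FOS (chr14:75278578-75278827, + strand): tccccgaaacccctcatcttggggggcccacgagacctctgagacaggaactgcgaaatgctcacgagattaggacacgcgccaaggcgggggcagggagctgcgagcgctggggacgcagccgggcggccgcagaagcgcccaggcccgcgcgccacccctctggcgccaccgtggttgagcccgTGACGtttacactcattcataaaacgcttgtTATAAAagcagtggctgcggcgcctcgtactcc
FOSB (chr19:45467746-45467995, + strand): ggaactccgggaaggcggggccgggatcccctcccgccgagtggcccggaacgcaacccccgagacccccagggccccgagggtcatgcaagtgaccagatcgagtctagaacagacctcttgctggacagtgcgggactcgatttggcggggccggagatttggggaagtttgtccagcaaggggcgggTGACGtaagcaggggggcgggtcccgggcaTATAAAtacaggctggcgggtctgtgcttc
JUNB (chr19:12791236-12791485, + strand): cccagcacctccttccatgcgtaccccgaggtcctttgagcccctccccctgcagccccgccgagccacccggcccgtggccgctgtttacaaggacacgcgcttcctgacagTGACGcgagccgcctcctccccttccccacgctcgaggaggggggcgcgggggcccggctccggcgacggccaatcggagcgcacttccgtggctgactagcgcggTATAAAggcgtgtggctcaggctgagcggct
EGR1 (chr5:138465229-138465478, + strand): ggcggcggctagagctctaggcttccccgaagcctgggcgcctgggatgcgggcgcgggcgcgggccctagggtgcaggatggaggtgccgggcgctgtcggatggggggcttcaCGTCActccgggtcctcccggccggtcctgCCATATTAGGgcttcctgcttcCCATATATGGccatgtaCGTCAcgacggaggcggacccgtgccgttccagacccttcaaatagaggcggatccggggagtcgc
DUSP1 (chr5:172771196-172771445, - strand): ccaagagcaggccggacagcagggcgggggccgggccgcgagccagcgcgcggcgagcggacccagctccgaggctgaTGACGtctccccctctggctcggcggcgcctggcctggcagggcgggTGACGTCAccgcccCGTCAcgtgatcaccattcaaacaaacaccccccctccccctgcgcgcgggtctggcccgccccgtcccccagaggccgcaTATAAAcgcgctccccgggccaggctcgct
DUSP6 (chr12:89352502-89352751, - strand): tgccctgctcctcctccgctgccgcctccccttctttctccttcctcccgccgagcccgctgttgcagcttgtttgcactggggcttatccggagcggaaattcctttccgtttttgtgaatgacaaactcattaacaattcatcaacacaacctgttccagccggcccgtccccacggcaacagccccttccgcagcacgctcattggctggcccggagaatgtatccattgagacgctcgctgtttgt
The EGR1 window holds a pair of CArG boxes, at 105 to 96 and at 83 to 74 bases before the start, with a CRE core on either side. DUSP1 has its full CRE at 125 to 118 bases before the start. FOS, FOSB, JUNB and DUSP1 share a TATA box that begins 30 to 33 bases before the start. In JUN and IER2, whose sequences are not shown, the CRE core begins at 123 and at 140 bases. FOSL1 and IER3 were not in the table.

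FPKM, a fragment count normalised for transcript length and library size, was the deposited unit. GAPDH had the same deposited value in both libraries of a line, 5417.35 FPKM in HeyC2 and 2248.44 FPKM in SKOV3. The TET1 values were spaced as FPKM of 2 decimals multiplied by 1 constant, 3.23 in HeyC2 and 1.35 in SKOV3, and were divided by it here. GAPDH in the TET1 libraries then stood at 1675 FPKM (HeyC2) and 1671 FPKM (SKOV3). Below, levels of TET1 libraries are FPKM after this step, and a relative change is log2((TET1 + 1)/(control + 1)) minus the median of all genes that passed a mean of 1 FPKM in the line. That median was 0.06 over 11896 genes in HeyC2 and 0.19 over 13016 genes in SKOV3. Estimated depth was about 6480000 to 7480000 fragments per library.
TET1 itself was at 0.20 and 0.52 FPKM in HeyC2 control and TET1, about 14 and 33 fragments, and at 0.43 and 1.80 FPKM in SKOV3, about 30 and 110 fragments. Of the epithelial and ovarian markers, KRT8, KRT18 and PAX8 were between 74.6 and 775 FPKM in all 4 libraries, while WT1 and MUC16 did not pass 0.53 FPKM in any. CDH1 was listed at 0 in both HeyC2 libraries. EPCAM was at 0.09 and 0.38 FPKM in HeyC2 control and TET1 and at 15.4 and 16.1 FPKM in SKOV3. In SKOV3, 3 of the 10 markers were far lower in TET1 than in control: KRT7 (1537 and 22.0 FPKM), KRT19 (255 and 0.46) and MSLN (10.3 and 0.08). CDH1 (2.24 and 6.30 FPKM, relative change 0.98) and PAX8 (74.6 and 131 FPKM, 0.61) were higher there. Of the 8 markers that passed the filter in SKOV3, 2 were at least 1.5-fold higher and 3 lower, against 20.7% and 18.2% of all genes. In HeyC2, 6 passed, with 3 higher and 0 lower, against 12.5% and 9.19% of all genes. These 3 were KRT7 (290 and 1125 FPKM, 1.90), MSLN (46.6 and 77.5 FPKM, 0.67) and KRT19 (0.62 and 1.59 FPKM, 0.62). The summed level of the 10 epithelial markers was 1318 and 2164 FPKM in HeyC2 control and TET1 and 2648 and 1207 FPKM in SKOV3. Of 14 markers of leukocytes, endothelium, stroma and other cells, 8 in HeyC2 and 10 in SKOV3 were under 1 FPKM in both libraries. CD3E was at 0 throughout, and the sums were 78.9 and 193 FPKM in HeyC2 control and TET1 and 15.5 and 52.7 FPKM in SKOV3. Most of the HeyC2 sum was CD68 (56.2 and 90.2 FPKM) and CDH5 (18.9 and 94.6 FPKM), and DES was listed at 0 in control and stood at 2.27 FPKM in TET1. In SKOV3, COL1A1 was at 0.32 and 27.7 FPKM and CD68 at 12.7 and 20.4 FPKM. The 6 mesenchymal markers summed to 13166 and 5680 FPKM in HeyC2 and to 1317 and 942 FPKM in SKOV3. Most of the HeyC2 sum was VIM (7496 and 2927 FPKM) and FN1 (5557 and 2619 FPKM). The other markers did not follow it: CDH2 was higher in HeyC2 (0.61), and the list median was -0.07. In SKOV3, most of the sum was VIM (1223 and 835 FPKM), and the list median was -0.12. What part these markers have in the results below was not tested.

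The members stood at very different levels in the lines before TET1. The median of the 10 genes was 55.3 FPKM in HeyC2 control and 274 FPKM in SKOV3 control, and 2 and 8 of them ranked among the 1000 highest genes. EGR1 was lowest but for FOSB in HeyC2 control, at 2.46 FPKM, and second only to DUSP1 in SKOV3 control, at 467 FPKM. In HeyC2 control, the order from high to low was FOSL1, IER3, JUN, IER2, DUSP1, DUSP6, JUNB, FOS, EGR1 and FOSB, with JUN and IER2 nearly equal at 69.0 and 68.8 FPKM. In SKOV3 control it was DUSP1, EGR1, IER3, IER2, JUNB, JUN, FOS, FOSL1, FOSB and DUSP6, with JUN and FOS close at 258 and 253 FPKM. Relative to the median of all genes, 8 members were at least 1.5-fold lower in HeyC2 control than in SKOV3 control, where 28.6% of 12488 genes were. The other 2, FOSL1 and DUSP6, were at least 1.5-fold higher, as were 29.0% of all genes. At 2-fold these counts were again 8 (17.8% of all genes) and 2 (18.6%). The relative log2 difference was -6.81 for EGR1, rank 6 from the bottom of those 12488 genes, -3.98 for FOS and 2.44 for DUSP6. The tables of the lines were made separately, so these are levels side by side from single cultures.

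**Figure D1:**
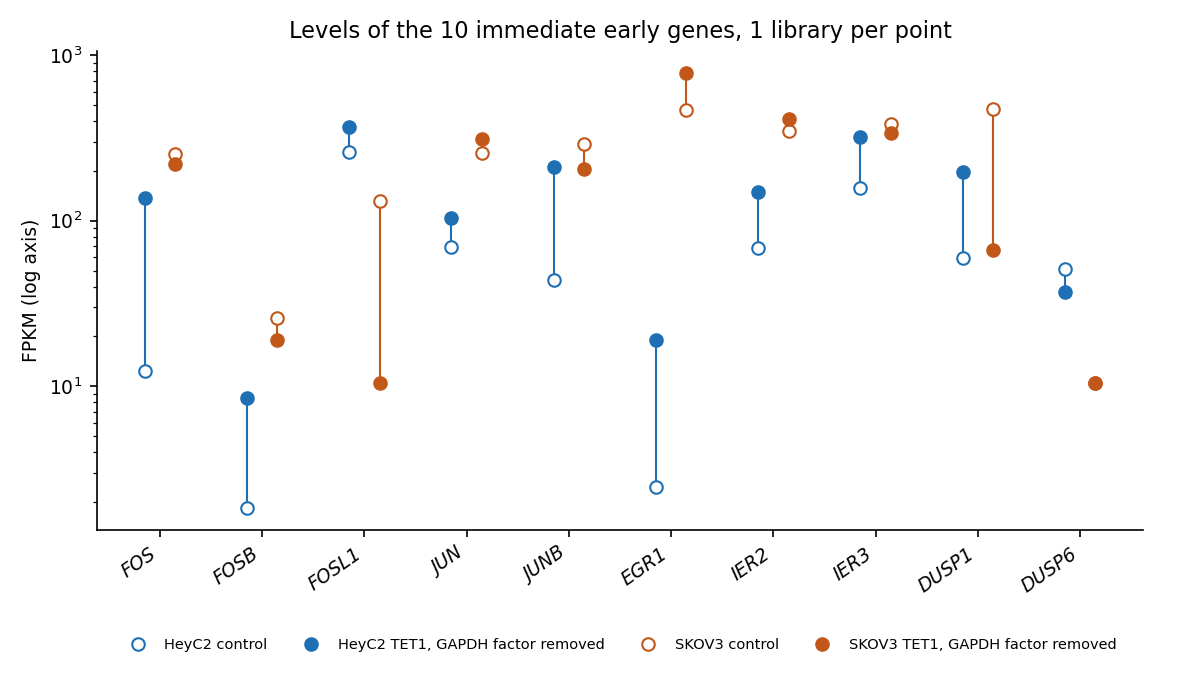
Levels of the 10 genes (FPKM, log axis), 1 point per library, with open circles for control and filled circles for TET1 after removal of the GAPDH factor, HeyC2 in blue and SKOV3 in orange. FOS runs from 12.4 to 138 FPKM in HeyC2, while FOSL1 and DUSP1 drop in SKOV3 to 10.4 and 66.7 FPKM, and the DUSP6 points of SKOV3 lie on each other at 10.5 and 10.4 FPKM.

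In HeyC2 with TET1, 7 of the 10 were at least 1.5-fold higher relative to all genes, against 12.5% of all genes, and 0 were lower, against 9.19%. FOS, EGR1, JUNB, FOSB, DUSP1, IER2 and IER3 made up the 7. In SKOV3, 0 of the 10 were higher, against 20.7% of all genes, and 4 were lower, against 18.2%: FOSL1, DUSP1, JUNB and FOSB. At 2-fold, HeyC2 had 6 higher (4.11% of all genes) and 0 lower (2.83%), and SKOV3 had 0 higher (10.1%) and 2 lower (6.49%). All 10 passed the filter in both lines. The median relative change was 1.34 in HeyC2, with a range from -0.50 to 3.32, and -0.39 in SKOV3, with a range from -3.74 to 0.56. The lower calls of FOSB and JUNB in SKOV3 were lost in 5 and 4 of 11 other settings, and EGR1 was called higher there in 7. Since each library pools RNA of many cells, more RNA per cell and more cells with the RNA cannot be told apart. Intervals given below are 95% exact binomial intervals of the ratio without a pseudocount, from estimated fragments, and cover counting error only, not the spread between cultures.

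**Figure D2:**
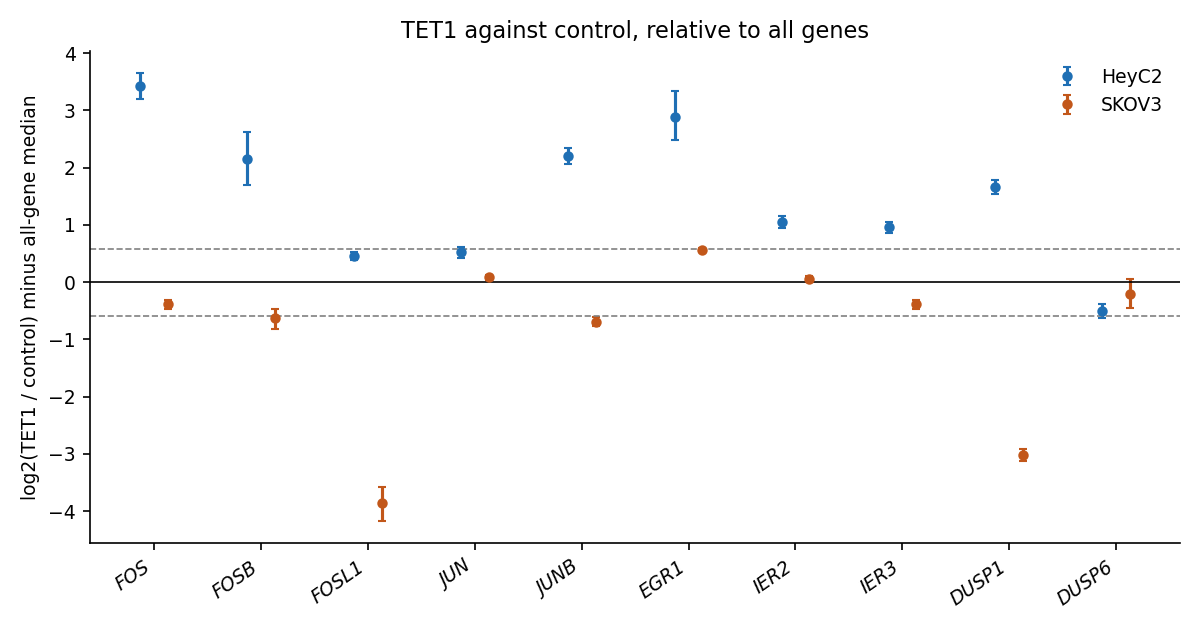
Relative log2 ratio of TET1 to control for each gene without a pseudocount (points), with the 95% counting interval (bars), HeyC2 in blue and SKOV3 in orange; dashed lines mark 1.5-fold. FOS is at 3.42 in HeyC2, FOSL1 and DUSP1 are at -3.86 and -3.03 in SKOV3, and DUSP6 lies under 0 in both lines.

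FOS, the first partner of JUN in AP-1, was at 12.4 FPKM in HeyC2 control and 138 FPKM in HeyC2 TET1 (446 as deposited), and at 253 and 220 FPKM in SKOV3 control and TET1. The HeyC2 control was thus the low library, and HeyC2 TET1 stood below both SKOV3 libraries. The relative change was 3.32 in HeyC2 (interval 3.20 to 3.65), rank 10 from the top of 11896 genes, and -0.39 in SKOV3 (-0.46 to -0.32).
FOSB, a close relative of FOS, was the least abundant FOS family member in HeyC2, at 1.84 FPKM in control and 8.47 FPKM in TET1. In SKOV3 it was at 25.9 and 19.1 FPKM. The relative changes were 1.68 and -0.62. At such low levels the pseudocount pulls the HeyC2 value down: without it the value was 2.14 (1.69 to 2.63), from about 49 and 205 fragments.
FOSL1 encodes FRA1, a FOS protein without the C-terminal activation domain and the FOS form typical of carcinoma cells with high ERK activity. It was at 259 and 371 FPKM in HeyC2 control and TET1, the highest member in both, and at 132 and 10.4 FPKM in SKOV3. SKOV3 TET1 stands apart as the low library. The relative change was 0.46 in HeyC2 (0.39 to 0.53), under the 1.5-fold limit of 0.58, and -3.74 in SKOV3 (-4.17 to -3.58), rank 19 from the bottom of 13016 genes.
JUN, the AP-1 subunit that also pairs with itself, was at 69.0 and 103 FPKM in HeyC2 and at 258 and 311 FPKM in SKOV3. It was under the 1.5-fold limit in both lines, with relative changes of 0.52 (0.43 to 0.62) and 0.08 (0.03 to 0.13).
JUNB, a weaker activator that can hold JUN in check, was at 43.8 and 210 FPKM in HeyC2 and at 289 and 205 FPKM in SKOV3. HeyC2 TET1 and SKOV3 TET1 ended at nearly the same level. The relative change was 2.18 in HeyC2 (2.07 to 2.35) and -0.69 in SKOV3 (-0.77 to -0.61).

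The make-up of the AP-1 families can be read within each library, where no scaling enters. FOSL1 held 87.9% of the summed FPKM of FOS, FOSB, FOSL1 and FOSL2 in HeyC2 control and 69.0% in HeyC2 TET1, while the share of FOS went from 4.19% to 25.7%. In SKOV3, FOSL1 held 27.8% in control and 2.76% in TET1. FOSL2, which is not among the 10 genes and encodes FRA2, held 13.4% and 33.7% there, and FOS 53.3% and 58.5%. The level of FOS divided by that of FOSL1 was thus 0.05 and 0.37 in HeyC2 control and TET1 and 1.91 and 21.2 in SKOV3, higher in TET1 in both lines. Among JUN, JUNB and JUND, the share of JUNB went from 22.3% to 49.2% in HeyC2 and from 38.5% to 26.8% in SKOV3. The summed FPKM of the FOS family was 295 and 537 in HeyC2 and 474 and 377 in SKOV3, and that of the JUN family 197 and 428 in HeyC2 and 751 and 763 in SKOV3.

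**Figure D3:**
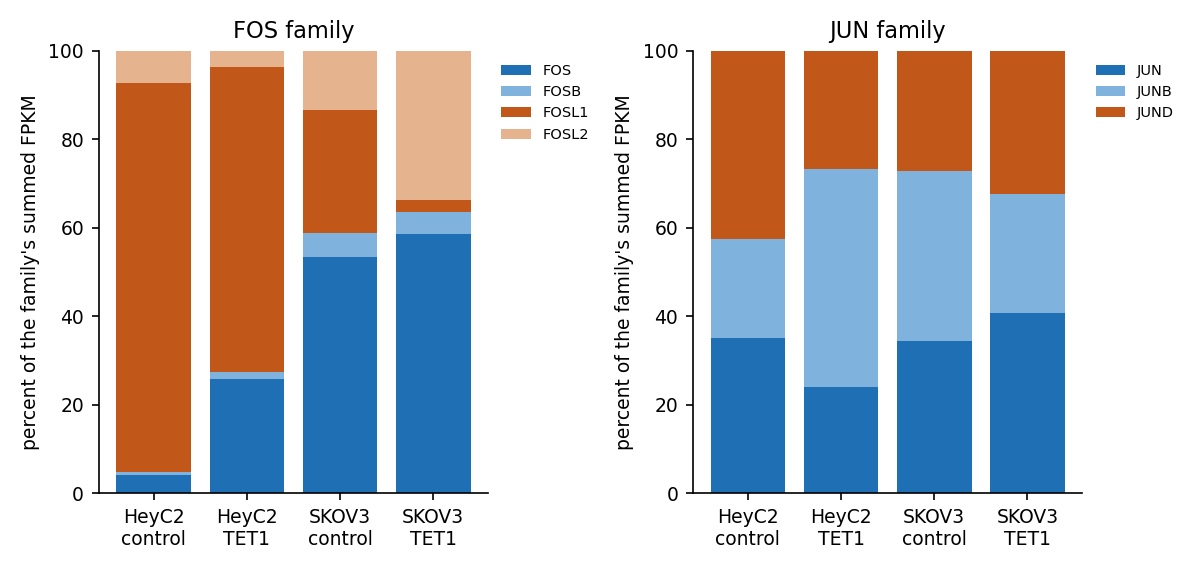
Share of each gene in the summed FPKM of the FOS family (left) and the JUN family (right), in percent, 1 bar per library. FOSL1 fills 87.9% of the FOS bar in HeyC2 control and 2.76% in SKOV3 TET1, and JUNB grows from 22.3% to 49.2% of the JUN bar in HeyC2.

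EGR1, the zinc finger factor whose promoter carries the CArG boxes above, was at 2.46 and 19.0 FPKM in HeyC2 control and TET1 and at 467 and 787 FPKM in SKOV3. The higher HeyC2 library was far below the lower SKOV3 library. The relative change was 2.47 in HeyC2, or 2.89 without a pseudocount (2.48 to 3.34), from about 54 and 380 fragments. In SKOV3 it was 0.56 (0.52 to 0.60), just under the 1.5-fold limit, and EGR1 was the highest of the 10 genes in SKOV3 TET1.
IER2, a small nuclear protein induced by growth factors, was at 68.8 and 148 FPKM in HeyC2 and at 347 and 411 FPKM in SKOV3. Its relative changes were 1.04 (0.94 to 1.16) and 0.05 (0.00 to 0.11). IER3, which modulates ERK signaling and cell survival, was at 158 and 319 FPKM in HeyC2 and at 386 and 339 FPKM in SKOV3. Its relative changes were 0.95 (0.85 to 1.05) and -0.38 (-0.46 to -0.30). Under TET1, the level of IER3 in HeyC2 came close to that in SKOV3, and that of IER2 did not.

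DUSP1, a nuclear phosphatase that acts on p38, JNK and ERK, was at 59.6 and 196 FPKM in HeyC2 control and TET1 and at 476 and 66.7 FPKM in SKOV3. The order of the conditions turned over between the lines, and SKOV3 TET1 ended near the HeyC2 control. The relative change was 1.65 in HeyC2 (1.55 to 1.78), rank 141 from the top, and -3.01 in SKOV3 (-3.13 to -2.92), rank 46 from the bottom.
DUSP6, a cytoplasmic phosphatase selective for ERK, was at 50.9 and 37.2 FPKM in HeyC2 and at 10.5 and 10.4 FPKM in SKOV3. It was the only one of the 10 below the all-gene median in HeyC2, with a relative change of -0.50 (-0.63 to -0.38), and was at -0.20 (-0.46 to 0.06) in SKOV3. DUSP1 was 1.17 and 5.28 times the level of DUSP6 in HeyC2 control and TET1 and 45.4 and 6.40 times in SKOV3.

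**Figure D4:**
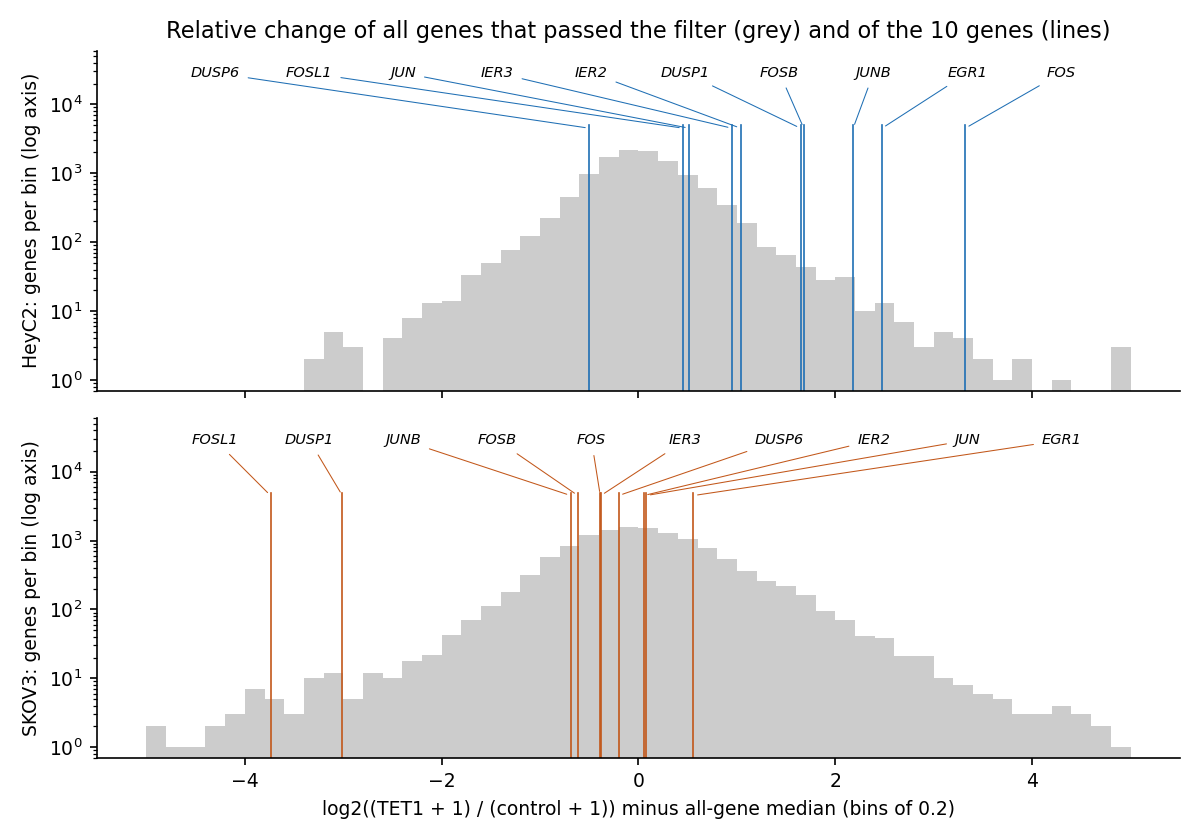
Relative change of all genes that passed the filter (grey bars, bins of 0.2, number of genes on a log axis, values past 5 placed in the end bins) with the 10 genes as lines, HeyC2 above and SKOV3 below. In HeyC2, 9 of the 10 lie right of 0; in SKOV3, 7 lie left of 0, with FOSL1 and DUSP1 far out at -3.74 and -3.01.

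The difference between lines, HeyC2 minus SKOV3, was 4.66 for DUSP1, 4.19 for FOSL1, 3.71 for FOS, 2.87 for JUNB and 2.30 for FOSB, and stayed at 0.44 for JUN and -0.30 for DUSP6. It was not tested, since each line has 1 library per condition. The genes lie on 7 chromosomes (GRCh37), FOSB (chr19:45971253-45978437), JUNB (chr19:12902300-12904129) and IER2 (chr19:13261225-13265725) on 19, EGR1 (chr5:137801168-137804992) and DUSP1 (chr5:172195099-172198198) on 5, and JUN (chr1:59242517-59249720), IER3 (chr6:30710976-30712325), FOSL1 (chr11:65659520-65668044), DUSP6 (chr12:89741012-89746278) and FOS (chr14:75745529-75748933) on others. The spans of FOSB and JUNB are covered whole, over 7185 and 1830 bases, by ERCC1 and HOOK2 on the other strand. The DUSP1 span is also covered whole, over 3100 bases, by a long noncoding RNA gene on the other strand. IER2, IER3 and DUSP6 are overlapped in part by such genes. Only whole gene spans were compared, not exons. Where exons of both strands coincide, reads cannot be assigned without strand, and whether they coincide was not examined. ERCC1 had relative changes of -0.14 and 0.46 in HeyC2 and SKOV3, and HOOK2 of 0.20 and 0.52. ERCC1 was at 47.2 and 44.7 FPKM in HeyC2 control and TET1 and at 29.4 and 46.8 FPKM in SKOV3, above FOSB in each library. HOOK2 was at 5.39 and 6.65 FPKM in HeyC2 and at 16.0 and 26.8 FPKM in SKOV3, below JUNB in each.

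Other genes of the pathway were followed in lists, some of which share genes. Each list count below is to be read beside the share of all genes. That share was 12.5% higher and 9.19% lower in HeyC2, and 20.7% higher and 18.2% lower in SKOV3. Of 30 further immediate early genes, 8 were at least 1.5-fold higher and 4 lower in HeyC2, with a median relative change of 0.14. ID1, an inhibitor of bHLH factors, was at 40.3 and 225 FPKM (2.40) and the NF-κB inhibitor NFKBIA at 43.6 and 126 FPKM (1.45), while TRIB1 was at 6.33 and 2.13 FPKM (-1.29) and MCL1, an anti-apoptotic BCL2 relative, at 208 and 108 FPKM. In SKOV3, 2 of the 29 that passed were higher and 17 lower, with a median of -0.71. The zinc finger factor gene KLF6 was at 125 and 15.0 FPKM (-3.17) and ID1 at 1232 and 335 FPKM (-2.07), while RHOB, a stress-induced small GTPase gene, was at 96.0 and 240 FPKM (1.12) and the antiproliferative gene BTG1 at 5.22 and 10.8 FPKM (0.73). MYC was among the 17, at 69.4 and 43.8 FPKM (-0.84), against 27.4 and 33.4 FPKM in HeyC2 (0.22), values chosen after they were seen.
Of the other EGR, NAB and NR4A genes, the filter kept 3 of 8 for HeyC2 and 5 for SKOV3. NAB2, a corepressor that EGR1 itself induces, was higher in both, at 5.43 and 9.63 FPKM in HeyC2 (0.67) and 9.93 and 25.3 FPKM in SKOV3 (1.08). The orphan receptor gene NR4A1 was at 6.29 and 6.22 FPKM in HeyC2 (-0.07) and 7.46 and 22.1 FPKM in SKOV3 (1.26), NAB1 was at 0.36 and -0.19, and NR4A2 was at -0.17 in SKOV3.
The other AP-1 and bZIP partners gave 1 higher and 1 lower of 11 in HeyC2 and 2 higher and 1 lower of 10 in SKOV3, where all genes gave 12.5% higher and 9.19% lower in HeyC2 and 20.7% and 18.2% in SKOV3. The small MAF gene MAFF was lower in both, at -1.33 in HeyC2 and -0.90 in SKOV3. BATF2 was at 1.42 and JUND at 0.39 in HeyC2, where ATF3 was at -0.47. In SKOV3, BATF3 was at 1.42, FOSL2 at 0.80 (63.4 and 127 FPKM) and MAFG at -0.37.

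Among genes that report ERK output, more were lower than higher in both lines. Of 15 ERK feedback and output genes, HeyC2 had 2 higher and 7 lower (median -0.55), against 12.5% and 9.19% of all genes. SKOV3 had 3 higher and 5 lower of 13 (median -0.40), against 20.7% and 18.2% of all genes. The higher counts were thus near the share of all genes in both lines. The ERK phosphatase gene DUSP5 was lower in both, at 153 and 65.2 FPKM in HeyC2 (-1.28) and 103 and 16.4 FPKM in SKOV3 (-2.76). DUSP4 was at 1.36 in HeyC2 and -1.68 in SKOV3, the same turn as DUSP1. SPRY1, a Sprouty inhibitor of RTK signaling, was at 0.97 and the ephrin receptor gene EPHA4 at -0.84 in HeyC2. In SKOV3, cyclin D1 (CCND1) was at 145 and 26.2 FPKM (-2.62), SPRED3 at 0.89 and the ETS factor gene ETV4 at 0.75.
The other dual-specificity phosphatases, DUSP4 and DUSP5 among them, gave 1 higher and 2 lower of 7 in HeyC2 (median -0.03) and 1 higher and 3 lower of 9 in SKOV3 (median -0.37). DUSP16 was at -1.56 and DUSP8 at 0.34 in HeyC2. DUSP2 was at 1.42 and DUSP16 at 0.05 in SKOV3.
The kinase cascades had medians near 0, with members on both sides. Of 20 RAS-ERK genes, 0 were higher and 2 lower in HeyC2 (median -0.05), and 1 was higher and 2 lower in SKOV3 (median -0.12). In HeyC2, 12.5% of all genes were higher and 9.19% lower, so 2 of 20 lower was near that share. The ribosomal S6 kinase gene RPS6KA2 was lower in both (-1.08 and -1.15). RPS6KA3 was at 0.32 and ARAF at 0.24 in HeyC2, and KSR1 at 1.30 and HRAS at -0.65 in SKOV3. Of the JNK and p38 genes, HeyC2 had 2 higher and 1 lower of 17 (median -0.05), and SKOV3 had 3 of each of 16 (median -0.10), against 20.7% higher and 18.2% lower among all genes. The p38 activator gene MAP2K6 was higher in both, at 1.19 and 4.34 FPKM in HeyC2 (1.23) and 0.91 and 8.66 FPKM in SKOV3 (2.15), as was MAPK12, a p38 gene (0.62 and 1.04). MAPKAPK3 was at -0.87 and MAP2K3 at -0.36 in HeyC2, and RPS6KA4 at -1.61 and MAP3K5 at -1.20 in SKOV3.

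SRF and its cofactors gave 0 higher and 0 lower of 6 in HeyC2 and 1 of each in SKOV3, where SRF was at 23.9 and 16.4 FPKM (-0.71), ELK3 at 0.91, MKL1 at 0.43 and ELK1 at -0.20. In HeyC2, MKL2 was at 0.40, MKL1 at 0.14, ELK4 at -0.33 and ELK3 at -0.45. Of 19 cytoskeletal targets of SRF and MRTF, 8 were higher and 1 lower in HeyC2 (median 0.18), against 12.5% and 9.19% of all genes. Of 18 in SKOV3, 0 were higher and 7 lower (median -0.50), against 20.7% and 18.2% of all genes. In HeyC2, the myosin light chain gene MYL9 was at 1.31 and 15.9 FPKM (2.81), TPM2 at 2.04, FLNA at -0.37 and MYH9 at -1.35. In SKOV3, TAGLN was at 62.7 and 11.2 FPKM (-2.57), ANKRD1 at -2.21, CALD1 at 0.58 and FHL2 at 0.42.
Among genes known as AP-1 targets, more were lower than higher in both lines. HeyC2 had 9 of 17 lower and 2 higher (median -0.61), against 9.19% lower and 12.5% higher among all genes. SKOV3 had 10 of 17 lower and 2 higher (median -0.68), against 18.2% lower and 20.7% higher among all genes. The collagenase gene MMP1 was at 2.26 FPKM in HeyC2 control and listed at 0 in HeyC2 TET1, and at 5.79 and 0.80 FPKM in SKOV3 (-2.11). The chemokine gene CXCL8 was at 21.7 and 43.1 FPKM in HeyC2 (0.90) and 74.3 and 4.89 FPKM in SKOV3 (-3.87). TIMP1 was at 0.82 and TNC at -1.54 in HeyC2, and SPP1 at 1.64 in SKOV3.
Heat shock genes report stress and handling. Of 9 that passed, 0 were higher and 4 lower in HeyC2 (median -0.47), against 12.5% and 9.19% of all genes. In SKOV3, 1 was higher and 7 lower (median -1.11), against 20.7% and 18.2% of all genes. HSPA1A was at 171 and 96.2 FPKM in HeyC2 (-0.88) and 181 and 87.0 FPKM in SKOV3 (-1.24), with HSPA1B at -0.95 in HeyC2, though these near-identical genes can share reads. HSPA8 was at -1.17 and HSPB1 at 1.12 in SKOV3, and HSPB1 was at -0.32 in HeyC2. DNAJA1 was at -0.04 and -0.24. The summed level of the list was 1831 and 1334 FPKM in HeyC2 control and TET1 and 2355 and 2084 FPKM in SKOV3, and its part in the members' changes was not tested.

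**Figure D5:**
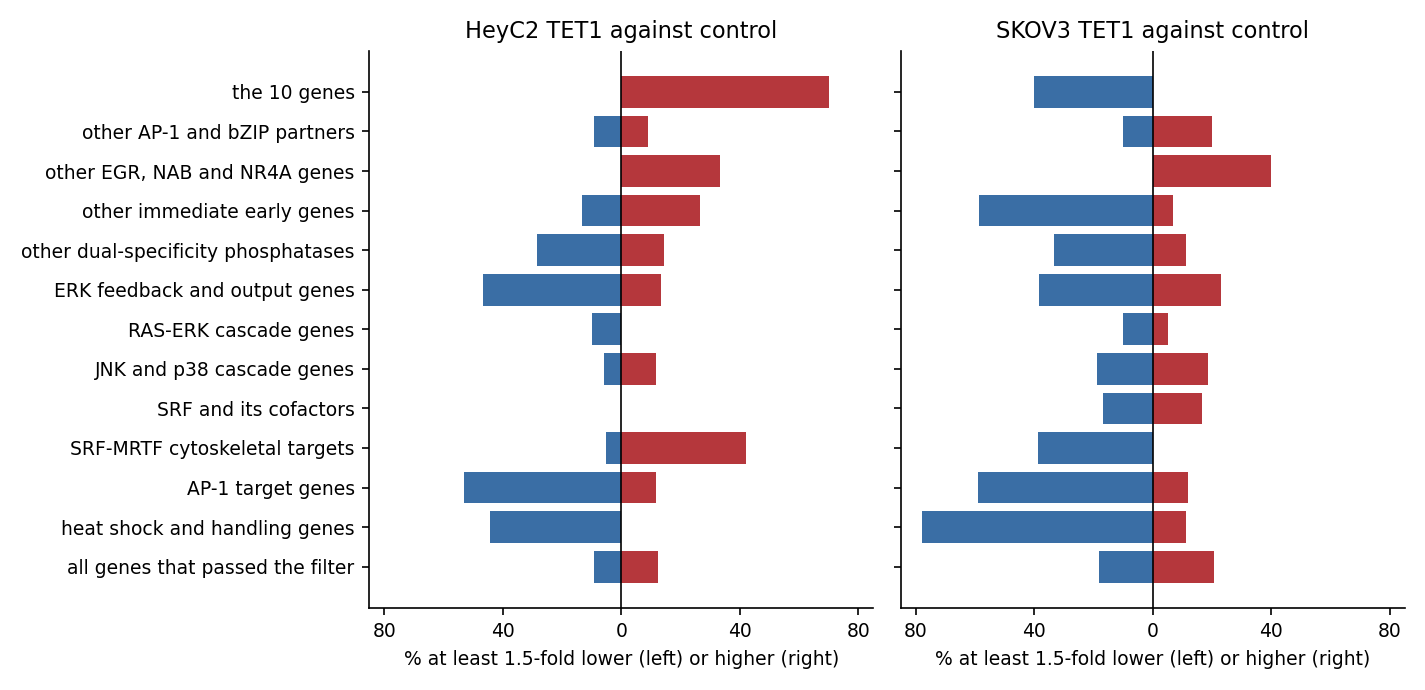
Percent of each list at least 1.5-fold lower (blue, left of 0) or higher (red, right of 0) than control after centring, 1 panel per cell line, over the genes that passed the filter, with all genes at the bottom. The 10 genes show 7 higher and 0 lower in HeyC2 and 0 higher and 4 lower in SKOV3, and the other immediate early genes 17 of 29 lower in SKOV3.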

How the data were processed

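RNA-seq libraries of HeyC2 and SKOV3 cells were used, 1 per condition. Per the labels, the authors aligned paired-end TruSeq reads to hg19 with Bowtie2 2.2.6 and deposited FPKM from RSEM 1.2.17, in 1 table per cell line. The annotation and any use of strand are not given in the sources used here. The deposited FPKM of each TET1 library had been multiplied by 1 factor that makes GAPDH equal to its control. The factor was recovered from the spacing of the values and divided out.

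The change of a gene was log2((TET1 + 1)/(control + 1)) minus the median over genes whose FPKM averaged 1 or more across the pair of libraries. Called means 1.5-fold past that median. No test was made with 1 library per condition. Fragments were estimated from the depth at which low FPKM of single-transcript genes are whole fragments and from GENCODE transcript lengths on GRCh37, the build of hg19. Their 95% exact binomial (Clopper-Pearson) intervals cover counting error only. The 10 genes, the lists and the settings were chosen with earlier results of these data known. The text names all 10 genes, TET1, GAPDH, the marker genes by level and, in each list, the 2 highest and 2 lowest changes per cell line, except a few that are not reported here. Other named list genes were chosen after their values were seen. Promoter sequences are from RefSeq on GRCh38.p14, for 8 of the 10 genes. The calculations were tested on simulated data with counting error only and with planted changes larger than 1.5-fold in well expressed genes. Low-level genes, changes near the 1.5-fold limit and the spread between cultures were not covered by that test. Python 3.11.15, numpy 2.4.6, pandas 2.3.3, scipy 1.17.1 and matplotlib 3.10.9 were used.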

Additional observations from a re-analysis of the deposited data

Results flagged for a closer look

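Of the 10 genes, 6 were above the all-gene median in HeyC2 and below it in SKOV3. Centring on the median puts many genes on each side of it in each line, so other genes do the same. The share of all genes that did so was not computed, nor the share past 1.5-fold in opposite directions, so these counts describe the 10 genes only. The relative log2 change in HeyC2 minus that in SKOV3 was 4.66 for DUSP1, 4.19 for FOSL1, 3.71 for FOS, 2.87 for JUNB, 2.30 for FOSB and 1.33 for IER3. These differences were not tested, since each line has 1 library per condition. DUSP1 was past 1.5-fold in opposite directions in the lines, at 1.65 and -3.01, under all 11 settings of scale, pseudocount, filter and centring. JUNB and FOSB were also past it in opposite directions, but their lower calls in SKOV3 were lost in 4 and 5 of those settings. FOS, IER3 and FOSL1 were past it in 1 line each. On the deposited scale without centring, FOS and IER3 were at 0.23 and 0.24 in SKOV3. With the factor removed and no centring they were at -0.20 and -0.19, and on the deposited scale with centring at -0.36 and -0.35.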

How the results depend on the processing

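HeyC2 control against SKOV3 control kept 2 higher and 8 lower genes in every setting run. The share of all genes was computed for the main setting at 1.5-fold and 2-fold only. The other counts of this section have no such share beside them and show only how the counts move. The higher count in HeyC2, 7 as reported, ran from 6 at 2-fold to 10. As deposited with centring, the median of the 10 genes was 1.44 in HeyC2, and without centring it was 3.05, with all 10 genes higher. On that last scale every HeyC2 TET1 value carries the constant of 3.23, itself past 1.5-fold. The count of 10 is therefore no result about these genes. At 1.2-fold, 1 gene (DUSP6) was lower in HeyC2. The lower quartile of all genes there, -0.28, was already past that limit, so 1 of 10 was below the share of all genes. FOS, FOSB, JUNB, EGR1, IER2, IER3 and DUSP1 stayed higher in HeyC2, and FOSL1 and DUSP1 lower in SKOV3, in all 11 settings that recompute a change. In SKOV3 the median was 0.23 as deposited without centring, where each TET1 value carries the constant of 1.35, with 3 higher and 2 lower. Without centring after removal of the factor it was -0.19, with 1 higher and 2 lower. Upper-quartile scaling gave -0.21, with 1 higher and 2 lower, and centring on the 500 genes nearest in level, added after the data were seen, gave -0.11, with 1 higher and 2 lower. A mean of at least 5 FPKM, the deposited scale with centring, correction for GC content and transcript length, and the 1.2-fold limit each gave 1 higher gene in SKOV3, which was EGR1, and the 2-fold limit gave 2 lower. The median of HeyC2 control against SKOV3 control was -2.51 without centring and -2.04 after the GC and length correction. Of 310 values of single genes, 82 moved by more than their counting error, and no called value changed sign. The cause was not tested. FOSB and EGR1 in HeyC2 control rest on about 49 and 54 estimated fragments, which limits their precision. Leaving out a library was not possible with 1 per condition. No paired analysis was possible because each condition has 1 library.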
